A study of Mus musculus with 6 samples.

Results

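The Fos and Jun family comprises 7 genes, Fos, Fosb, Fosl1, Fosl2, Jun, Junb and Jund, and its RNA was followed in the primary visual cortex (V1) of mice with 1 eye closed. The members were taken by gene symbol from a table of 52636 genes. The family was chosen from a group of activity-linked genes already seen to differ between the hemispheres of these animals, so the difference between hemispheres is given below as a description of the members and supports nothing beyond it. All 7 members passed the filter on low counts (20473 genes passed in all), with 83 to 3188 reads per member and library.

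The tissue came from 3 C57BL/6J mice (wild type) of postnatal day 28, each with the right eyelids sutured under isoflurane for the preceding 3 days. Left V1 is contralateral and right V1 ipsilateral to the sutured eye, and total RNA from both sides of each mouse gave 3 contralateral and 3 ipsilateral libraries. Both groups come from deprived animals, and V1 of mice with both eyes open was not analysed here. The libraries are from dissected whole tissue, in which fewer cells of a type and less RNA per cell cannot be told apart.

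Fos proteins and Jun proteins share a basic region that contacts DNA and a leucine zipper through which they pair. A Fos protein must pair with a Jun protein to bind DNA stably, whereas Jun proteins can also pair with each other, and the resulting dimers are the transcription factor AP-1. In neurons Fos, Fosb and Junb are immediate early genes, transcribed within minutes of synaptic activity without new protein synthesis, and visual input is a well-known inducer of them in visual cortex. Jund, by contrast, is expressed steadily in most tissues.

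The promoters of Fos, Fosb and Junb, which had lower RNA in contralateral V1, are shown beside that of Jun, which did not. Fosl2 was lower too, but its RefSeq window lies within the 5′ UTR annotated in GENCODE M21 and is not printed. RefSeq windows for GRCm38.p6, running from 250 bases before to 50 bases after the annotated start, matched 6 of the 7 members, and the 250 bases before the start are printed. Fos lies at chr12:85473640-85473889 (plus strand), Fosb at chr7:19310046-19310295 (minus), Junb at chr8:84978749-84978998 (minus) and Jun at chr4:95052223-95052472 (minus). Capitals mark matches to the cAMP response element (CRE) core TGACG and the TATA box TATAAA, and in Jun the CRE-like site TGACATCA followed by a MEF2 box.
Fos: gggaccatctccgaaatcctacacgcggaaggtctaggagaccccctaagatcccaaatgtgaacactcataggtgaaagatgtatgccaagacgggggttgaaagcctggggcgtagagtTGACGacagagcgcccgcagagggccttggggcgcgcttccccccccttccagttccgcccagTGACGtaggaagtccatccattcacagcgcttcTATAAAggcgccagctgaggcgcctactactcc
Fosb: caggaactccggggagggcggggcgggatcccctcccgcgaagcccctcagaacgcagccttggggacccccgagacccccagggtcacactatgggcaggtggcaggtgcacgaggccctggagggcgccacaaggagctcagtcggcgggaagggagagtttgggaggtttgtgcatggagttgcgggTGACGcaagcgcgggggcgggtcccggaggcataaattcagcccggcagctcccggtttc
Junb: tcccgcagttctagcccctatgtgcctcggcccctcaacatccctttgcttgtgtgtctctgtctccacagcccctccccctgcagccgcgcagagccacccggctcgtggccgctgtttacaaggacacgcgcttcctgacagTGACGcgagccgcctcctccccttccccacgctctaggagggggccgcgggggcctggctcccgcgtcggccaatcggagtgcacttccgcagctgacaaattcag
Jun: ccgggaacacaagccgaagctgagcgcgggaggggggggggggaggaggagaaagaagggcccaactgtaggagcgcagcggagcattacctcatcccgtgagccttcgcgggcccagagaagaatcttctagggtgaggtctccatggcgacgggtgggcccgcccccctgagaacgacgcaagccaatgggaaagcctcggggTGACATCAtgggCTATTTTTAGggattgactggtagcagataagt

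The CRE core was present in Fos, Fosb and Junb and absent from the windows of Fosl2, Jun and Jund. The Fosl2 window need not be its promoter, so the windows cannot tell whether lower contralateral RNA in every member goes with the core. Fos held it at -66 to -62 and at -129 to -125 relative to the start, Fosb at -60 to -56 and Junb at -106 to -102. With both strands searched, 20.8% of 32851 promoter windows of the same length held this 5-base core, so its presence is common. The full CRE TGACGTCA, which contains the core, was in 1.8% of all windows and in none of the 6. An AP-1 site, TGANTCA, was in none of the 6 and in 7.8% of all windows. A CArG box, the core of the serum response element, was in none of the 6 and in 1.6% of all. Bases further upstream than these windows were not searched. The absence of a motif from a window therefore does not show that the gene lacks it, and this includes the CArG box of Fos.

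Jun carried a different arrangement. Its CRE-like site lay at -45 to -38 (3.6% of all windows) and its MEF2 box at -33 to -24 (0.6% of all windows), and no TATA box was found. Fos had a TATA box at -33 to -28, and that of Junb (beyond the printed stretch) lay at bases 1 to 6 from the RefSeq start, which is 30 bases upstream of the start in GENCODE M21 (TATA boxes stood in 13.6% of all windows). A GC box, GGGCGG, was found in Fos, Fosb, Fosl2 and Jun (35.7% of all windows) and was the sole match in the Fosl2 window, whereas a CCAAT box was found in Jun and Junb (37.4%). The Jund window held no match, but its RefSeq start lies 1210 bases upstream of the GENCODE start, and the GENCODE start of Fosl2 is at -671 relative to its RefSeq start, so neither window need be the promoter of the annotated transcript. GC content ran from 58.7% for Fos to 68.3% for Fosb, against 46.7% for Jund and a median of 52.7% over all windows. The map of motif matches sets these positions side by side.

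**Figure D1:**
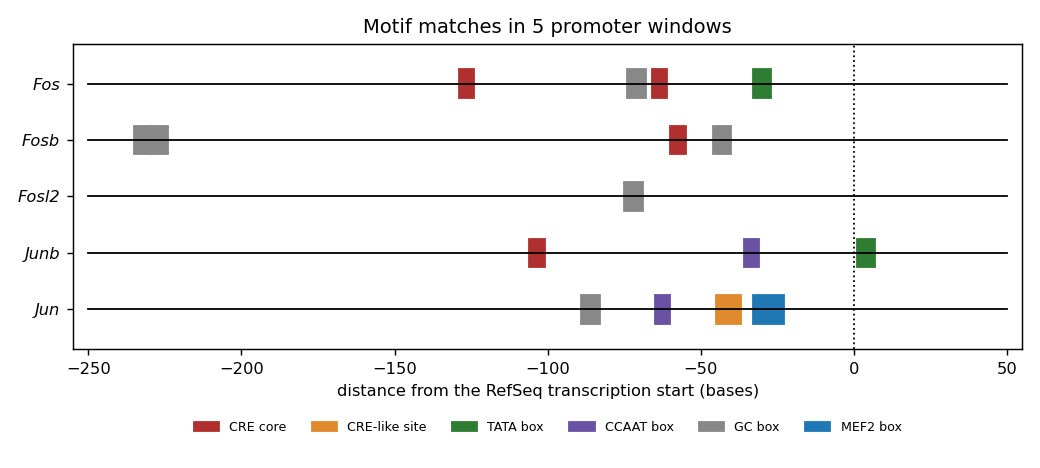
Motif matches (coloured boxes, both strands) along the promoter windows of 5 members, with distance from the RefSeq transcription start in bases on the x axis and the start as a dotted line. The CRE core (TGACG) appears in Fos, Fosb and Junb, and Jun has the CRE-like site (TGACATCA) and MEF2 box close to its start.

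Fos, Fosb, Fosl2 and Junb were lower in contralateral V1 of every mouse, with ratios of group means from 2.42-fold (Junb) to 4.06-fold (Fos). Fosl1, Jun and Jund had overlapping hemispheres. Levels here are CPM, read counts scaled to a common library size, with library sizes scaled by TMM, a correction for composition.

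Fos, the founding member, had 7.57, 8.68 and 14.2 CPM in contralateral libraries 1 to 3 and 37.3, 39.3 and 46.7 CPM in ipsilateral libraries 1 to 3. The lowest ipsilateral library was well above the highest contralateral one, and mouse 3 was the highest on both sides. Means were 10.1 ± 3.54 CPM (SD, n = 3) contralateral and 41.1 ± 4.97 CPM ipsilateral. The exact Poisson 95% intervals of the nearest libraries, 12.6 to 15.8 CPM for contralateral 3 and 34.7 to 40.1 CPM for ipsilateral 1, did not meet, although such intervals cover counting error only. The fitted log2 fold change of Fos (ENSMUSG00000021250, chromosome 12, 85473890 to 85477273, plus strand, 4 exon blocks) was -2.02 (SE 0.21).

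Fosb, whose alternatively spliced product ΔFosB is a stable protein that accumulates with repeated stimulation, had the narrowest contralateral values. They were 6.57, 6.43 and 6.05 CPM, against 29.3, 17.9 and 15.9 CPM ipsilaterally. Ipsilateral mouse 1 stood above the other ipsilateral libraries, and no ipsilateral library came near the contralateral ones. The contralateral coefficient of variation was 4.25%, under the 8.86% that counting alone gives at 120 to 132 reads, while the ipsilateral one was 34.3%. The fitted log2 fold change was -1.72 (SE 0.23), and -1.45 without ipsilateral library 1. Counts per gene cannot separate ΔFosB from full-length Fosb RNA (ENSMUSG00000003545, chromosome 7, 19302696 to 19310051, minus strand).

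Fosl2 encodes Fra-2, a Fos-related protein without the strong activation domain of Fos. It had 32.2, 45.7 and 39.0 CPM contralaterally and 159, 91.9 and 90.9 CPM ipsilaterally. As for Fosb, ipsilateral mouse 1 was the highest library by a wide margin, and within that mouse the ipsilateral side was 4.94 times the contralateral side, against 2.01 times in mouse 2 and 2.33 times in mouse 3. The spread among ipsilateral libraries (34.4%) was far above counting error (1.92%). The fitted log2 fold change was -1.55 (SE 0.21), or -1.27 without ipsilateral library 1 (ENSMUSG00000029135, chromosome 5, 32135801 to 32157842, plus strand).

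Junb, the partner through which induced Fos proteins commonly bind DNA, had the most even ipsilateral values and ratios per mouse. Its values were 23.2, 19.8 and 22.4 CPM contralaterally and 54.4, 50.9 and 52.7 CPM ipsilaterally. The ipsilateral libraries spread by 3.32%, close to the 2.78% of counting error, and the contralateral ones by 8.35%, and the ratio of ipsilateral to contralateral was 2.34, 2.58 and 2.35 in mice 1 to 3. The fitted log2 fold change was -1.27 (SE 0.13). Junb (ENSMUSG00000052837, chromosome 8, 84974484 to 84978718, minus strand) shares 173 exon bases with Prdx2 on the opposite strand, and whether counting used strand is not given in the sources used here. Prdx2 had 64.0 ± 16.8 CPM contralateral and 74.2 ± 9.22 CPM ipsilateral, a smaller difference than that of Junb.

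**Figure D2:**
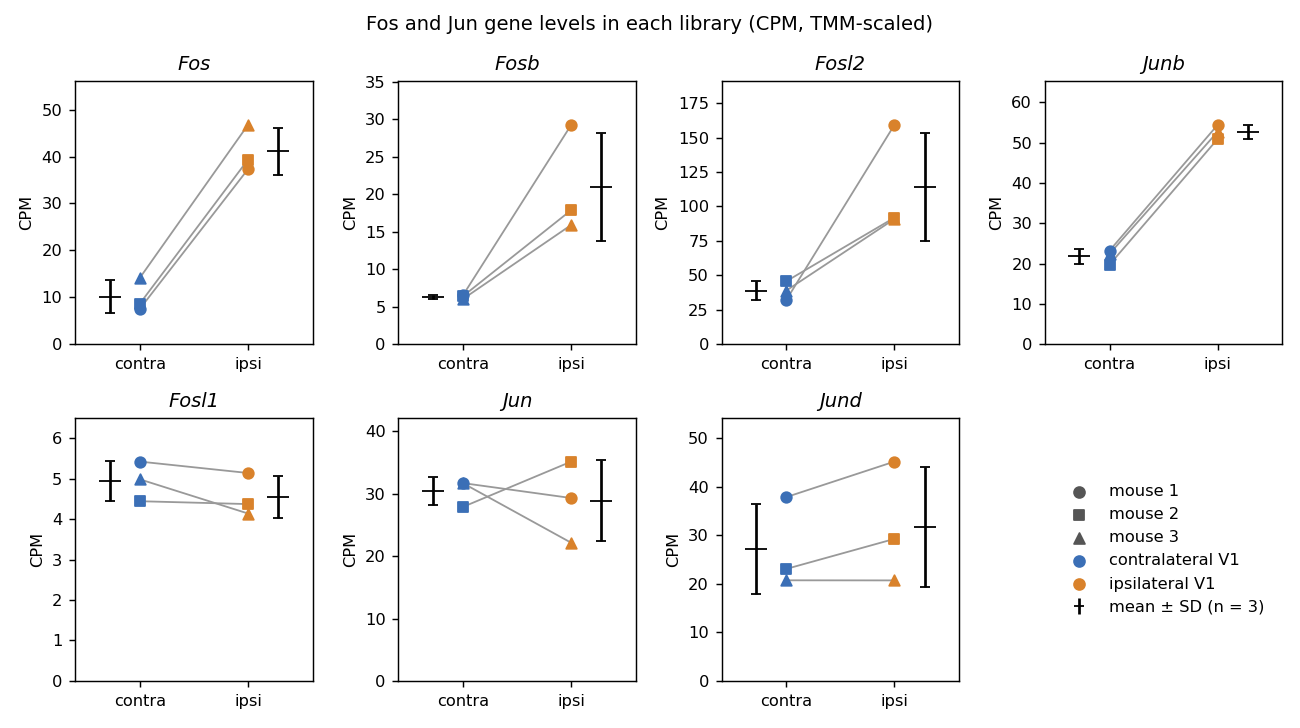
CPM of each member (y axis, from 0) in contralateral (blue) and ipsilateral (orange) V1, with 1 marker shape per mouse, grey lines joining the hemispheres of a mouse, and black bars for mean ± SD of 3 libraries. The hemispheres separate completely for Fos, Fosb, Fosl2 and Junb and overlap for Fosl1, Jun and Jund.

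The other 3 members did not separate between hemispheres. Jun, the Jun protein phosphorylated by JNK kinases, had 31.7, 27.9 and 31.7 CPM contralaterally and 29.3, 35.2 and 22.1 CPM ipsilaterally. Its contralateral side was higher in mice 1 and 3 and lower in mouse 2, and the fitted log2 fold change of 0.07 (SE 0.17) was smaller than its error. That sign depended on mouse 3: the estimate was -0.12 without both libraries of mouse 3 and 0.30 without both of mouse 2. Jun (ENSMUSG00000052684, chromosome 4, 95049034 to 95052222, minus strand) is a single-exon gene that shares 232 exon bases with the antisense gene Junos, which had 1.92 ± 0.61 CPM contralateral and 1.45 ± 0.14 CPM ipsilateral.

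Jund had 37.9, 23.1 and 20.7 CPM contralaterally and 45.2, 29.3 and 20.7 CPM ipsilaterally. Mouse 1 was highest and mouse 3 lowest on both sides, so that the mice differed more than the hemispheres did. The fitted log2 fold change was -0.22 (SE 0.27). Jund (ENSMUSG00000071076, chromosome 8, 70698949 to 70700616, plus strand) is also a single-exon gene. The antisense neighbour Gm11175 shares 877 of the 1668 exon bases of Jund and had 0 reads in all 6 libraries. As the strand setting of counting was not given, this 0 does not settle whether reads in the shared bases were counted for Jund.

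Fosl1, which encodes Fra-1, was the scarcest member in reads. It had 5.43, 4.45 and 4.99 CPM contralaterally and 5.14, 4.37 and 4.14 CPM ipsilaterally, from 83 to 135 reads per library. The contralateral side was higher in all 3 mice and by most in mouse 3, where the exact Poisson 95% intervals still overlapped (4.09 to 6.02 CPM contralateral and 3.37 to 5.03 CPM ipsilateral). The fitted log2 fold change was 0.12 (SE 0.21), smaller than its error. Fosl1 (ENSMUSG00000024912, chromosome 19, 5447547 to 5455946, plus strand) shares 1163 of its 2033 annotated exon bases with Ccdc85b on the opposite strand, which was more abundant (19.6 ± 8.84 CPM contralateral, 18.9 ± 8.12 CPM ipsilateral), so the Fosl1 counts are uncertain.

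In edgeR's quasi-likelihood test over all genes, 4 of the 7 members, Fos, Fosb, Fosl2 and Junb, were called lower in contralateral V1 at an adjusted p under 0.05, against 0.127% of the 20473 genes tested. The same 4 had all contralateral libraries below all ipsilateral ones (6.29% of genes tested) and were lower in each mouse (17.3%). With the mouse as a block the count of members was again 4, against 0.698% of genes. Nothing is read from these shares, since the family was selected on this difference. Leaving out contralateral library 2 gave 0 members called by edgeR, as did leaving out mouse 2 entirely, with 0 genes called in all (833 and 521 genes had an unadjusted p under 0.05), and without contralateral library 3 it called 2, Fos and Junb. The fits with a library or mouse left out did not use the mouse as a block, and none was run with it. DESeq2 and limma-voom over all 6 libraries each called the same 4. In the fit without contralateral library 2 the log2 fold changes were -1.92 for Fos, -1.73 for Fosb, -1.68 for Fosl2 and -1.21 for Junb.

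**Figure D3:**
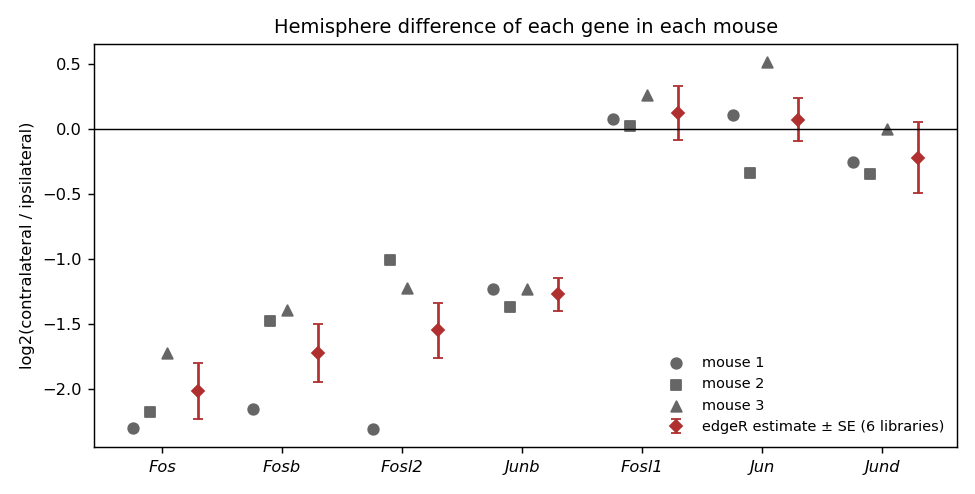
Log2 ratio of contralateral to ipsilateral CPM of each member in each mouse (grey markers), with the edgeR estimate ± SE over the 6 libraries (red diamonds). Fos, Fosb, Fosl2 and Junb lie between -2.31 and -1.01 in every mouse, Junb within the narrowest span of them. Jun lies on both sides of 0, Fosl1 between 0.02 and 0.27, and Jund between -0.34 and 0.0015.

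The libraries fall into a low set (14.5 to 35.9 CPM) and a high set (2243 to 5801 CPM) in mt-Rnr1, a ribosomal RNA of the mitochondrion, a split that crosses the hemispheres. Within the low set (contralateral 1, ipsilateral 1 and 3) the log2 fold changes were -2.48 for Fos, -1.79 for Fosb, -1.97 for Fosl2 and -1.22 for Junb. Within the high set they were -1.78, -1.52, -1.12 and -1.27 in the same order. The 4 members were called in both sets, where 1 hemisphere has a single library that is assumed to vary like the others. Jun was 0.29 in the low and -0.24 in the high set, and Jund 0.19 and -0.42.

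Markers of the cell types present were summed in the same libraries. All 8 markers of GABAergic interneurons were detected, and their summed level was 324.5 to 379.6 CPM contralaterally and 456.1 to 537.1 CPM ipsilaterally, lower on the contralateral side in each mouse, as were the 4 members. Of these 8 genes, 0 passed in edgeR without the block (0.127% of all genes were called lower) and 3 did with it (0.698%). An unadjusted p under 0.05 in edgeR was found for 4, all lower, against 587 lower and 672 higher among the 20473 genes tested. DESeq2 called 2 and limma-voom 0, and the median log2 fold change was -0.49. The part of this marker difference in the Fos and Jun values was not tested. Markers of excitatory cortical neurons, all 10 detected, summed to 5186 to 5723 CPM contralaterally and 4384 to 5830 CPM ipsilaterally, and those of astrocytes, microglia, vascular cells, meninges, blood, and thalamus and hippocampus likewise overlapped between hemispheres. The oligodendrocyte sums overlapped as well (3637 to 6142 CPM contralaterally and 5109 to 6305 CPM ipsilaterally) but were lower contralaterally in each mouse, by log2 ratios of -0.08, -0.04 and -0.54. All 8 of these genes had a negative log2 fold change (median -0.23) and 0 passed in edgeR, DESeq2 or limma-voom, with 1 at an unadjusted p under 0.05. Of the 8 meningeal markers 7 had a negative log2 fold change (median -0.25), and all 8 microglial markers had a positive one (median 0.16). Of the 8 astrocyte markers 2 were negative (median 0.06), and of the 8 vascular ones 1 (median 0.07). In each of these 4 sets 0 genes had an unadjusted p under 0.05 in edgeR. The part of the oligodendrocyte markers and of these sets in the Fos and Jun values was not tested either.

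Levels of different genes were compared per length, as CPM per kilobase of the deposited gene length. In contralateral V1 Jund led (16.3 ± 5.57), followed by Jun (9.54 ± 0.69) and Junb (9.48 ± 0.79), whose ranges overlapped. Fos (4.31 ± 1.50) and Fosl2 (4.03 ± 0.70) also overlapped, and Fosl1 (2.90 ± 0.29) and Fosb (1.02 ± 0.043) came last. In ipsilateral V1 the order was Junb (22.9 ± 0.76), Jund (19.0 ± 7.45), Fos (17.5 ± 2.11), Fosl2 (11.8 ± 4.05), Jun (9.05 ± 2.04), Fosb (3.37 ± 1.15) and Fosl1 (2.67 ± 0.31). There each member overlapped the next in range, except that Jun stood above Fosb. Divided by coding length instead, Fosl2, whose deposited gene length of 9680 bases far exceeds its coding sequence of 978 bases, led in both hemispheres, so the order between genes rests on the length used.

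Among the 20473 genes tested, the per-length level of Fos was above 57.1% of genes in contralateral and 87.4% in ipsilateral V1. Fosb went from 22.9% to 51.7%, Fosl2 from 55.2% to 80.6% and Junb from 76.5% to 90.9%. Jun (76.7% and 75.1%), Jund (87.1% and 88.6%) and Fosl1 (46.8% and 46.3%) held nearly the same rank on both sides. These ranks also rest on the deposited gene lengths.

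Summed per length, the 4 Fos genes had 10.8, 12.05 and 13.9 contralaterally and 40.0, 31.6 and 34.2 ipsilaterally. The 3 Jun genes had 42.8, 31.2 and 32.1 contralaterally and 59.9, 50.7 and 42.3 ipsilaterally. The Fos sums did not overlap between hemispheres and the Jun sums did, although per coding length neither overlapped (Jun genes 69.6 to 91.2 contralaterally and 93.4 to 126.2 ipsilaterally). The ratio of Fos to Jun gene RNA was 0.25, 0.39 and 0.43 contralaterally and 0.67, 0.62 and 0.81 ipsilaterally, higher on the ipsilateral side in each mouse. Per coding length the ratio was 0.58, 0.95 and 0.87 contralaterally and 1.83, 1.34 and 1.66 ipsilaterally. Which of the 2 groups of genes had more RNA on the ipsilateral side thus turned with the length used, while the ratio was higher ipsilaterally under both.

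Within the Jun genes, the ratio of Junb to Jun per length was 1.02, 0.98 and 0.98 contralaterally and 2.57, 2.01 and 3.30 ipsilaterally. Junb and Jun antagonise each other at some AP-1 targets. Per coding length their ratio was 0.71, 0.69 and 0.69 contralaterally and 1.80, 1.41 and 2.31 ipsilaterally, so the contralateral balance near 1 holds for the deposited length only, and the higher ipsilateral ratio for both. The ratio of Fos to Junb was 0.32, 0.43 and 0.62 contralaterally and 0.67, 0.76 and 0.87 ipsilaterally, without overlap. Ratios of Fos to Fosb (3.06 to 6.22 contralaterally and 3.38 to 7.80 ipsilaterally) and of Fosl2 to Fosb (3.16 to 4.59 and 3.31 to 3.69) overlapped between hemispheres.

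As shares of all family RNA per deposited gene length, Fos made up 9.21 ± 3.59% (SD, n = 3) contralaterally and 20.7 ± 5.07% ipsilaterally, and Junb 20.0 ± 1.15% and 26.8 ± 3.14%. Jund had the largest mean contralateral share, 33.8 ± 7.87%, against 21.6 ± 5.45% ipsilaterally. Per coding length Fosl2 (28.7 ± 5.79%) and Jun (21.8 ± 1.21%) came before Jund (19.0 ± 5.90%) contralaterally, and the shares of Junb overlapped between hemispheres (14.1% to 15.8% contralaterally and 14.8% to 20.6% ipsilaterally). Jun went from 10.6 ± 2.46% ipsilaterally to 20.1 ± 1.50% contralaterally and Fosl1 from 3.10 ± 0.08% to 6.10 ± 0.21%. The levels of Jun and Fosl1 themselves overlapped, and the family total was smaller on the contralateral side (47.6 ± 5.32 against 86.3 ± 12.2).

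**Figure D4:**
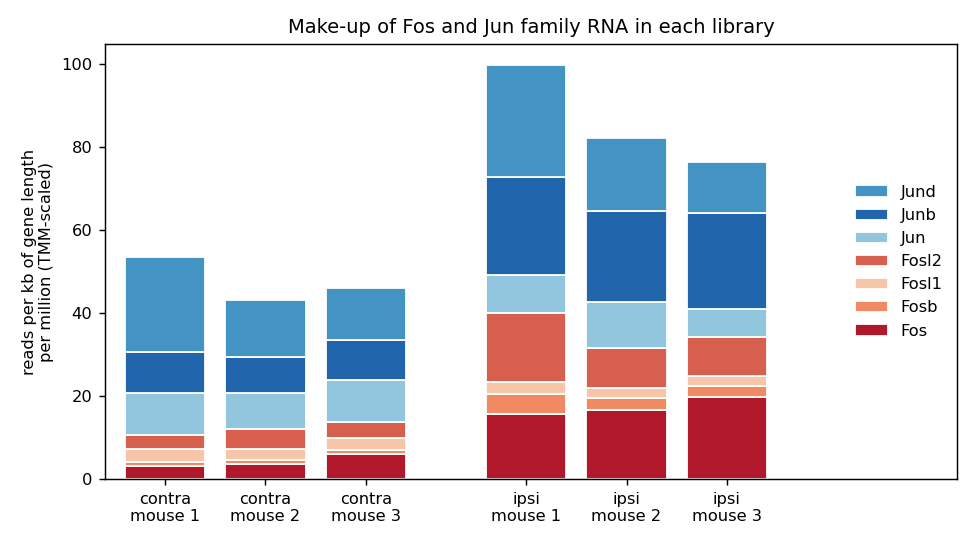
Stacked levels of the 7 members in each library (y axis, CPM per kilobase of deposited gene length), Fos genes in reds and Jun genes in blues. The totals run from 43.2 to 53.5 contralaterally and from 76.5 to 99.9 ipsilaterally, and on this length scale Jund takes the largest share in contralateral libraries.

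For some members the mice had the same order of values in both hemispheres, but counting error leaves parts of these orders unresolved. For Fos the order was mouse 3, 2, 1 on both sides, for Fosb and Jund it was mouse 1, 2, 3 on both sides, and for Junb mouse 1, 3, 2 on both sides. Contralateral Fosb spread by less than counting error (4.25% against 8.86%), and ipsilateral Junb by little more (3.32% against 2.78%). The exact Poisson 95% intervals also overlapped between contralateral mice 1 and 2 for Fos and 2 and 3 for Jund. Fosl1, Fosl2 and Jun had different orders on the 2 sides. Fosb and Fosl2 tracked each other over the 6 libraries (Pearson r = 0.98 of log2(CPM + 0.5)), as did Fos and Junb (r = 0.96), and Jun showed r of -0.27 with Fos. These r are descriptions over 6 libraries that fall into 2 hemispheres, and the part of the hemisphere difference in them was not tested.

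Genes outside the family with the most similar profile were sought among 13613 named genes of at least 1 CPM. The measure was Pearson r of log2(CPM + 0.5) over the same 6 libraries. Each r given is among the highest of that many candidates over few libraries, so it is a description only. The top r was as high for Jund (0.998), which did not separate between hemispheres, as for Fosl2 (0.998). For Fos the nearest genes were Dusp5, a phosphatase of ERK kinases (r = 0.997), the neuregulin receptor gene Erbb4 (0.991) and Wdr26 (0.990). For Fosb they were the pentraxin gene Nptx2 (0.993), Lemd1 (0.993) and the nuclear receptor gene Nr4a3 (0.990). Those of Fosl2 were the protocadherin gene Pcdh17 (0.998), the potassium channel partner gene Kcnip1 (0.997) and the kinase gene Camk1g (0.995). Those of Junb were the microtubule end-binding gene Mapre1 (0.994), Naf1 (0.993) and the survival factor gene Bcl2 (0.990). Sharing a profile did not mean sharing its size: the log2 fold change was -0.35 for Erbb4, -0.19 for Pcdh17 and -0.30 for Mapre1, against -1.14 for Dusp5 and -0.91 for Camk1g. For Jun the nearest were Aamp (0.986), Ccdc115 (0.982) and Mad1l1 (0.979), for Jund Mpdu1 (0.998), Dhcr7 (0.997) and Agpat1 (0.996), and for Fosl1 Btbd9 (0.992), the ribosomal pseudogene Rps19-ps6 (0.990, which may share reads with Rps19) and Ap4m1 (0.987).

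Lists of genes that act with AP-1 were then set beside the family. They were written with earlier results of these data known, so their counts and medians are descriptions only. Over all 20473 genes the median log2 fold change was 0.03, and 1259 had an unadjusted p under 0.05 in edgeR (587 lower and 672 higher). Of 22 dimer partners outside the family 16 were tested and 0 passed in edgeR, with 3 at an unadjusted p under 0.05 and 0 called by DESeq2 or limma-voom. Their median was -0.11. Atf4, a stress-response bZIP factor, went from 60.2, 48.7 and 49.6 CPM ipsilaterally to 42.1, 36.0 and 42.2 CPM contralaterally (log2 fold change -0.40, edgeR adjusted p = 0.676). Jdp2, a repressor that pairs with Jun proteins, stood at -0.34 (edgeR adjusted p = 0.771). Both were named for having the smallest p of the list, and neither passed. Both had all contralateral libraries below all ipsilateral ones, as did 6.29% of all genes tested.

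Of 21 transcription factors and cofactors that act on Fos and Jun promoters all were tested and 0 passed in edgeR, DESeq2 or limma-voom, with 2 at an unadjusted p under 0.05 and a median of -0.02. Elk1, an ERK-activated partner of SRF, stood at 0.33 (edgeR adjusted p = 0.771) and Crem, a CREB relative, at -0.37 (0.776). Of 18 genes for the turnover and restraint of AP-1 0 passed in edgeR, DESeq2 or limma-voom, with 3 at an unadjusted p under 0.05 and a median of -0.06. Fbxw7, the ubiquitin ligase subunit that targets Jun, stood at -0.32 (edgeR adjusted p = 0.771) and Jazf1 at -0.38 (0.743).

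Of 23 genes of the MAP kinase arm 0 passed in edgeR without the block, with 4 at an unadjusted p under 0.05 and a median of -0.06. With the mouse as a block edgeR called 2 lower, Map3k5 and Rps6ka3, and 1 higher, Map2k6 (0.698% of all genes were called lower and 0.195% higher in that fit). Map3k5, the kinase ASK1 upstream of JNK and p38, had 79.6, 74.1 and 85.7 CPM contralaterally and 109, 117 and 110 CPM ipsilaterally (log2 fold change -0.49, edgeR adjusted p = 0.278 without and 0.0155 with the block). DESeq2 called Map3k5 as well (adjusted p = 0.0466), and limma-voom called 0. Map2k6, a kinase that activates p38, had 27.3, 22.1 and 29.8 CPM contralaterally and 16.6, 17.3 and 19.9 CPM ipsilaterally (0.56, edgeR adjusted p = 0.511 and 0.0285).

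Of 25 genes described as AP-1 targets 19 were tested and 2 fell, against 0.127% of all genes, with a list median of -0.03. An unadjusted p under 0.05 in edgeR was found for 6 that were lower and 1 that was higher. Nptx2, which clusters AMPA receptors, had 18.6, 15.9 and 16.9 CPM contralaterally and 82.2, 42.9 and 38.8 CPM ipsilaterally (-1.67, edgeR adjusted p = 0.0179). Scg2, a neuropeptide precursor, had 80.4, 83.0 and 104 CPM contralaterally and 148, 163 and 146 CPM ipsilaterally (-0.77, edgeR adjusted p = 0.0481). The count was 0 without contralateral library 2 or without mouse 2. It was 1 without contralateral library 1 or 3, ipsilateral library 2 or 3 or mouse 3, within either mt-Rnr1 set, with upper-quartile scaling and with a filter at 1 CPM.

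Of 17 other immediate early transcription factors 16 were tested and 5 fell, against 0.127% of all genes. An unadjusted p under 0.05 in edgeR was found for 13, all lower. The block gave 12, against 0.698% of all genes, and the list median was -0.94, against 0.03 over all genes tested. Nothing is read from these shares or this median, since the list was written with earlier results of these data known. The 4 with the smallest p were Nr4a1 (-1.71), Egr2 (-2.95), Nr4a3 (-1.38) and Egr1 (-1.56), edgeR adjusted p from 0.00125 to 0.0127. The count was 0 without contralateral library 2 or without mouse 2, and 11 with no filter on low counts. Egr2 was the sole gene of the 16 with a larger log2 difference than Fos. Of 14 heat shock and handling genes 0 passed in edgeR, with 2 at an unadjusted p under 0.05 and a median of -0.23. The Hsp40 gene Dnajb5 (-0.58) had an edgeR adjusted p of 0.206, and of 0.00670 with the block, and DESeq2 called it (adjusted p = 0.0114). Hspa8 stood at -0.40 (edgeR adjusted p = 0.784).

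**Figure D5:**
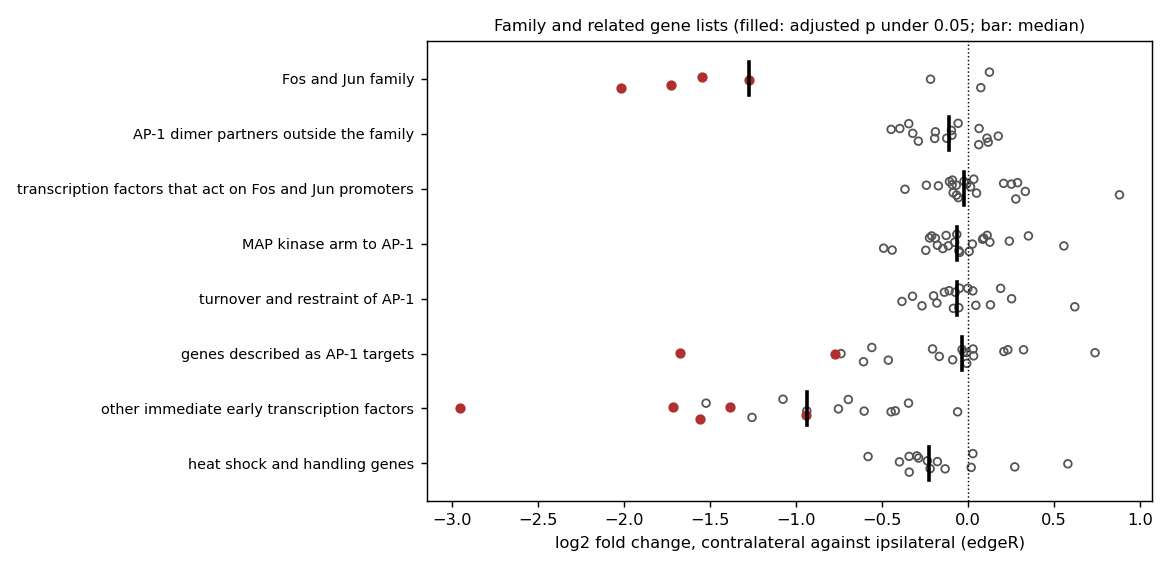
Log2 fold change, contralateral against ipsilateral (x axis), of the tested genes of the family and of 7 related lists, with filled points for an adjusted p under 0.05 in edgeR and a bar at each list's median. The filled points lie in the family, the other immediate early transcription factors and the described AP-1 targets.

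Back-splice reads gave a second readout of the same libraries. None of the 1488 circular RNAs in the deposited circRNA table had a Fos or Jun gene as host, and none overlapped a member's locus, so no circular product of the family was measured. Jun and Jund, with a single exon each, have no splice junction in the annotation.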

How the data were processed

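RNA was measured in 6 libraries, contralateral and ipsilateral V1 of 3 mice, made with a stranded total RNA kit per the labels' protocols. The authors deposited raw read counts for each Ensembl gene and back-splice read counts for each circRNA, per the file headers. HISAT2, featureCounts, DESeq2, limma and GRCm38 appear in the submitters' processing notes. Their versions and roles and the strand setting were not given in the sources used here. The deposited normalized circRNA values were not used. Libraries held 17849253 to 32213500 gene reads. Symbols came from GENCODE M21 (GRCm38), where 52403 of 52636 IDs were found and 95.2% of those had the same bounds.

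The members and gene lists were chosen with earlier results of these data known. Genes were tested with edgeR 4.0.16 in R 4.3.3 (quasi-likelihood test, TMM, genes kept by filterByExpr at count 10 and total 15, Benjamini-Hochberg adjustment over 20473 genes, threshold 0.05). Each SE is |log2 fold change| divided by the root of its F statistic. Named genes were the 7 members, up to 4 passing genes of each list with the smallest p (otherwise the 2 with the smallest p), and the 3 genes with the highest Pearson r to each member. The test was first run on simulated counts. It recovered 54 of 97 changes of 2-fold (55.7%) and 93 of 99 changes of 4-fold (93.9%), with 12 false calls. A list in which 0 genes passed may therefore still hold changes of 2-fold or less. Both libraries of a number come from the same mouse per the labels, which pairs them. The correlation of their residuals about the group mean was 0.508, 0.0979 and 0.221 in mice 1 to 3. Across mice it was 0.186 for contralateral 2 with ipsilateral 3, 0.193 for contralateral 3 with ipsilateral 2 and negative otherwise. These values set mouse 1 apart but do not separate mice 2 and 3, whose pairing rests on the labels. Alternatives used DESeq2 1.42.0, limma 3.58.1 (voom), other scalings and filters, the mouse as a block, libraries and mice left out, and the mt-Rnr1 level. Separate animals gave the 3 libraries of a group. Promoter windows came from RefSeq (GRCm38.p6). Figures were drawn with Python 3.11.15 and matplotlib 3.10.9.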

Additional observations from a re-analysis of the deposited data

How the results depend on the processing

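The number of genes called, 26, was 89 in DESeq2, 109 with no filter on low counts and 183 with the replicate block (mouse), and 0 to 39 with a library or a mouse left out. The number of Fos and Jun members called, 4, was 0 to 4 with a library or a mouse left out and 4 with the replicate block, which changed no call of a member, and under each other setting. That number was 0 without contralateral library 2 or mouse 2 and 2 without contralateral library 3. It stayed at 4 without mouse 1 or mouse 3, fits with as many libraries as the fit without mouse 2. The fits with a library or a mouse left out did not use the mouse as a block. The cause of these losses was not tested. Fos, Fosb, Fosl2 and Junb kept a negative sign under all 19 alternatives (-2.48 to -1.78, -1.90 to -1.45, -1.97 to -1.12 and -1.33 to -1.21). Jun reversed to -0.09 without ipsilateral library 3, -0.12 without mouse 3 and -0.24 within the high mt-Rnr1 libraries (0.30 without mouse 2 at the other end), and Jund to 0.083 without ipsilateral library 1 and 0.19 within the low ones (-0.54 without contralateral library 1 at the other end). Fosl1 kept its sign. Levels per length moved by less than 1 SD with RLE scaling. Per coding length they became, contralateral then ipsilateral, 8.89 and 36.1 for Fos, 6.26 and 20.7 for Fosb, 6.05 and 5.56 for Fosl1, 39.8 and 116.5 for Fosl2, 30.4 and 28.8 for Jun, 21.1 and 51.1 for Junb, and 26.6 and 31.0 for Jund. Read depth limits Fosl1 most, at 83 to 135 reads per library.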
